A study of Mus musculus with 24 samples.

Results

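The 8 genes described here act in the handling of thyroid hormone or respond to it: the deiodinases *Dio1* and *Dio2*, the transporter *Slco1c1*, the receptors *Thra* and *Thrb*, and the hormone-responsive genes *Klf9*, *Hr* and *Thrsp*. They were chosen by symbol among the 34745 genes of the deposited RNA-seq table, and all 8 were found in it. The question was whether lower expression of *Dio3*, the imprinted deiodinase gene on chromosome 12, was accompanied by a change in these genes in mouse embryos without *Zfp57*, which encodes a zinc finger protein that maintains genomic imprints.

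RNA-seq had been performed on total embryos at embryonic day 13.5 on a hybrid 129/DBA background. One group was 6 *Zfp57* -/+ (M-Z+) embryos, which lack maternal *Zfp57* but carry a functional paternal allele. The other group was 6 *Zfp57* -/- (M-Z-) embryos, which lack both maternal and zygotic *Zfp57*. The mothers of both groups were *Zfp57* -/- 129 females and the fathers were *Zfp57* +/- males mainly of the DBA/2J background, so maternal *Zfp57* was missing in every embryo compared, and embryos with maternal *Zfp57* were not analysed here. Each library came from 1 embryo, and the labels do not give sex, litter or batch.

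Thyroid hormone circulates mainly as thyroxine, which is a weak ligand of its nuclear receptors until an outer-ring deiodinase removes an iodine and gives triiodothyronine. DIO2 performs this activation inside cells, DIO1 performs it mainly in liver and kidney, and DIO3 removes an inner-ring iodine and inactivates both forms, which shields fetal tissues from hormone. The receptors THRA and THRB bind DNA with or without hormone, and many of their targets are repressed without it and induced with it.

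Total counts ranged from 12347383 to 19216288 in the M-Z+ libraries and from 12005145 to 14617373 in the M-Z- libraries. *Zfp57* itself was counted at 19.1 to 40.8 CPM (counts scaled to the TMM-normalised library size of the tested genes) in M-Z+ embryos and at 17.8 to 27.8 CPM in the M-Z- group. The ranges overlap, and a gene-level count does not show whether the transcript is functional, so this gene does not check the genotype labels. Markers of neurons, muscle, cartilage, hepatocytes and red blood cells were all detected, whereas 3 of 4 trophoblast markers were at 0 in all 12 libraries. In whole embryos, fewer cells of a type and less RNA per cell cannot be told apart.

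Promoter sequences are shown for 2 of the genes, because hormone receptors act through DNA near their targets. The 250 bases upstream of the start were taken from RefSeq (GRCm38.p6) for 6 of the 8 genes, with 2 alternative starts for *Thrb*. The RefSeq start of *Thrsp* and the second start of *Thrb* lie within the gene as the deposited table places it, so those windows are not upstream of the whole gene. No window was used for *Thra* and *Hr*. Both strands were searched for AGGTCA, the core motif recognised by thyroid hormone receptors and shared with several other nuclear receptors. Capitals mark a match, and each sequence runs 5′ to 3′ on the strand of its gene. The windows are those of *Thrb* (first start, chr14:17660710-17660959, plus strand), the only one of the 7 windows with a match, and of *Klf9* (chr19:23140976-23141225, plus strand), which is known as a hormone-induced gene.
Thrb: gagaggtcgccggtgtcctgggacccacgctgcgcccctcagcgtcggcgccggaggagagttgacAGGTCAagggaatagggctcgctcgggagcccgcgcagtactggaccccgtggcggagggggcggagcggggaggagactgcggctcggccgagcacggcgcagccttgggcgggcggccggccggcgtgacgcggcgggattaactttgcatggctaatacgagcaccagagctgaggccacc
Klf9: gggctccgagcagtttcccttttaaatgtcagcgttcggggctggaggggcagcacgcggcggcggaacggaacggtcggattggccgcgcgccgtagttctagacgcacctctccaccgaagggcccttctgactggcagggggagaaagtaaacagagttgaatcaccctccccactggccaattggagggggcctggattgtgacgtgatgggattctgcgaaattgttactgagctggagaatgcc

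The *Thrb* match begins 184 bases upstream of the start. Such a match was present in 14.0% of 32817 windows of all genes, so 1 of 7 is close to the share among genes at large. The direct repeat of 2 such motifs separated by 4 bases, the arrangement preferred by thyroid hormone receptors paired with RXR, was found in 0.0152% of all windows and in none of the 7. No match shows only that these letters are not within the 250 bases. The windows differed more in base composition. The first *Thrb* window (71.6% GC, 30 CpG dinucleotides) and that of *Klf9* (59.6% GC, 18 CpG) were rich in CpG against medians of 52.4% GC and 6 CpG over all windows. Those of *Dio1*, *Dio2* and *Thrsp* and the second of *Thrb* held 2 CpG each, and that of *Slco1c1* held none.

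*Dio3* was lower in every M-Z- embryo than in any M-Z+ embryo. The gene (chr12:110279068-110281097, GRCm38) had 79 to 141 counts in the M-Z+ libraries and 22 to 27 in the M-Z- libraries. Its CPM was 4.74 at the lowest, 6.47 at the median and 8.91 at the highest in M-Z+ embryos (mean 6.59 ± 1.52, SD, n = 6), and 1.64, 1.87 and 2.19 in M-Z- embryos (mean 1.89 ± 0.244, SD, n = 6). This is a 3.48-fold lower level, with a log2 fold change of -1.80 (SE 0.18, 95% interval -2.18 to -1.42, adjusted p = 0.000238 by edgeR's quasi-likelihood test). The exact two-sided permutation test of mean CPM gave p = 0.0022, the smallest that 6 embryos against 6 allow. The lower *Dio3* was known from earlier results of these data when the question was set. These p-values are therefore not independent support for it.

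None of the 8 genes was called by the same test. A gene was called where the adjusted p was under 0.05 and the log2 fold change exceeded 0.5 in either direction, and 0.0811% of the 16026 tested genes were called (7 higher and 6 lower in M-Z- embryos). The filter on low counts left 6 of the 8 genes. Among the 6, edgeR and DESeq2 each called 0, and 0 had an unadjusted edgeR p below 0.05, which 6.70% of all tested genes had. In none of the 8 did the 2 genotypes separate without overlap, which 0.574% of all tested genes did. In M-Z- embryos 3 of the tested genes were higher in value (*Dio2*, *Thrb* and *Klf9*) and 3 lower (*Thra*, *Slco1c1* and *Hr*), with a median log2 fold change of -0.044 beside -0.0072 over all tested genes. The p-values rest on 1 library per embryo and set the difference against the spread between these embryos. No label names a litter or sex, so embryos may not be independent. Effects of litter cannot be separated with these labels, and an effect of sex was not tested.

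**Figure D1:**
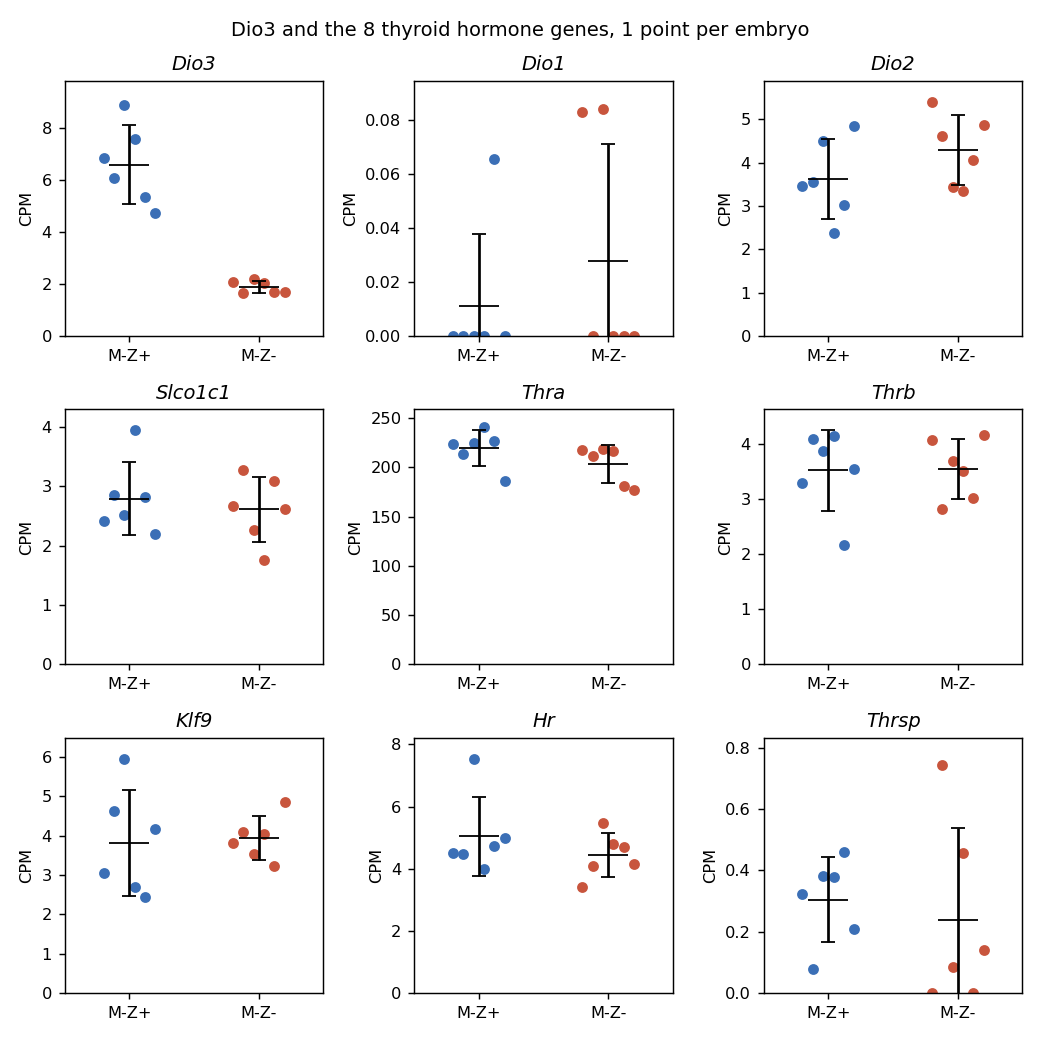
CPM (vertical axes from 0, each gene on its own scale) of *Dio3* and the 8 genes, with 1 point per embryo, 6 M-Z+ (blue) and 6 M-Z- (red), and black bars for the mean ± SD. The *Dio3* groups are apart (4.74 to 8.91 against 1.64 to 2.19 CPM), and the groups of each of the other genes overlap.

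The intervals show the range of change that was not excluded for each gene. Over the 6 tested genes, the 95% intervals reached from -0.55 to 0.66 on the log2 scale at their widest, or 0.685-fold to 1.58-fold. The interval of *Dio3* lay outside that span. Standard errors ran from 0.08 for *Thra*, the only abundant gene of the set, to 0.21 for *Klf9*. The other 5 tested genes had a mean below 10 CPM in M-Z+ embryos. Changes within these intervals were not excluded with these embryos. The intervals are not limits of detection, since a call also required p to pass adjustment over 16026 genes. A change somewhat beyond them could therefore still go uncalled. The parts of counting error and of the spread between embryos in the width of the intervals were not tested.

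**Figure D2:**
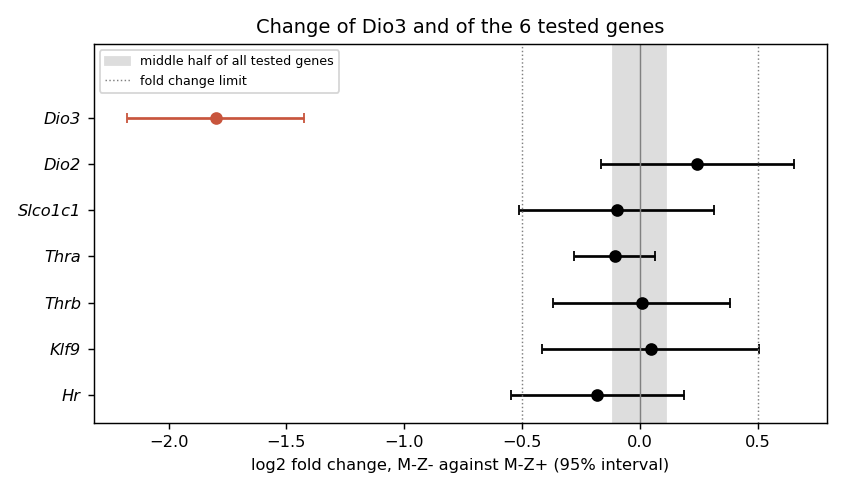
Log2 fold change of M-Z- against M-Z+ embryos (horizontal axis) with its 95% interval for *Dio3* (red) and the 6 tested genes (black), beside the quartiles of all tested genes (grey band, -0.11 to 0.11) and the fold change limits of -0.5 and 0.5 (dotted). The interval of *Dio3* is the only one that does not cross 0.

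*Dio2*, which encodes the activating deiodinase, was the tested gene with the highest fold change, and its groups overlapped broadly. The gene lies at chr12:90724554-90738438, on the chromosome of *Dio3* but far from it. It had 43 to 93 counts in M-Z+ libraries and 41 to 69 in M-Z- libraries. The level was 2.37 CPM at the lowest, 3.50 at the median and 4.85 at the highest in M-Z+ embryos, and 3.35, 4.34 and 5.40 CPM in M-Z- embryos. The 2 lowest values were both of M-Z+ embryos, while the highest M-Z+ value nearly coincided with the second highest M-Z- value (4.86 CPM). The log2 fold change was 0.24 (SE 0.19, 95% interval -0.17 to 0.66, adjusted p = 0.759 by edgeR, exact permutation p = 0.208). *Gm26512*, another annotated gene, overlaps *Dio2*, and how reads of both were divided is not given in the sources used here.

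*Dio1*, which encodes the deiodinase of liver and kidney (chr4:107291465-107307169), was close to undetected in both genotypes. It had 1 count in 1 M-Z+ library and 2 counts in all in the M-Z- libraries, 1 in each of 2 embryos. Both totals are below 3 counts, the limit that a count of 0 allows, which over a whole group is 0.0327 CPM (M-Z+) or 0.0379 CPM (M-Z-). No fold is therefore given. Hepatocyte RNA was present in these libraries, with summed marker levels of 2408 to 4716 CPM in M-Z+ and 1898 to 4345 CPM in M-Z- embryos.

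Compared as TPM, which scales counts by the merged exon length of a gene and by the library, *Dio3* made up 83.3% ± 5.40 of the RNA of the 3 deiodinases in M-Z+ embryos and 55.4% ± 6.31 in M-Z- embryos (SD, n = 6 each). The *Dio3* level was 9.14 ± 1.92 TPM in M-Z+ and 2.69 ± 0.288 TPM in M-Z- embryos (SD, n = 6 each). The ratio of *Dio3* TPM to *Dio2* TPM was 2.80 to 9.18 in M-Z+ embryos (mean 5.56 ± 2.07, SD) and 0.996 to 1.82 in M-Z- embryos (mean 1.31 ± 0.374, SD). The groups did not overlap (exact two-sided permutation test of the mean log2 ratio, p = 0.0022, the smallest possible). Since *Dio3* alone separated the genotypes and *Dio2* did not, this is not a separate result on *Dio2*. As a share of the TPM of the 3 deiodinases, *Dio2* took 16.5% ± 5.39 in M-Z+ and 43.8% ± 6.72 in M-Z- embryos (SD, n = 6 each). *Dio1* took less than 1% on average in both. For *Dio3*, the deposited FPKM imply a length of 3479 bases where the merged exons hold 2030. For *Dio2* both lengths are 5813. The shares and the ratio were not computed with the implied lengths.

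Neither receptor gene was called, and *Thra* was by far the more abundant of them. *Thra* encodes the receptor that is widely expressed in the embryo (chr11:98740638-98769006). It had 2776 to 4466 counts in M-Z+ and 2515 to 2848 counts in M-Z- libraries. Its level was 186 CPM at the lowest, 224 at the median and 241 at the highest in M-Z+ embryos, and 177, 214.5 and 218.5 CPM in M-Z- embryos. None of the 6 M-Z- embryos reached the M-Z+ median, but 1 M-Z+ embryo (replicate 6, 186 CPM) lay among the lowest of all. The log2 fold change was -0.11 (SE 0.08, 95% interval -0.28 to 0.067, adjusted p = 0.759 by edgeR, exact permutation p = 0.158). As a fold, the interval ran from 0.824 to 1.05. *Nr1d1*, a clock gene transcribed from the opposite strand, overlaps the 3′ end of *Thra*. The treatment of strand is not given in the sources used here, so reads from the shared stretch cannot be told apart. *Nr1d1* was counted at 2.39 ± 0.462 CPM in the M-Z+ group and 2.12 ± 0.418 CPM in the other (SD, n = 6 each). This count can itself depend on how shared reads were divided, and the part of such reads in *Thra* was not tested.

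*Thra* moved with the length slope of the libraries. This slope gives the rise of log2 CPM per doubling of gene length across genes, and a higher slope means relatively more counts from long genes. It was 0.410 to 0.755 in M-Z+ libraries (mean 0.560) and 0.561 to 0.756 in M-Z- libraries (mean 0.636). Log2 CPM of *Thra* had a Pearson correlation with the slope of -0.985 within the M-Z+ and -0.994 within the M-Z- embryos (n = 6 each), where both values come from the same library. The 3 embryos below 190 CPM, which were M-Z+ replicate 6 and M-Z- replicates 5 and 6, had the 3 highest slopes. With the slope as a covariate, the log2 fold change of *Thra* was -0.010. The corresponding correlations of *Dio2* were 0.828 and 0.300, those of *Slco1c1* -0.781 and 0.449, and those of *Dio3* -0.674 and -0.689. With the covariate the log2 fold change of *Dio2* went from 0.24 to 0.12 and that of *Slco1c1* from -0.097 to -0.014. That of *Dio3* was -1.65, still called.

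**Figure D3:**
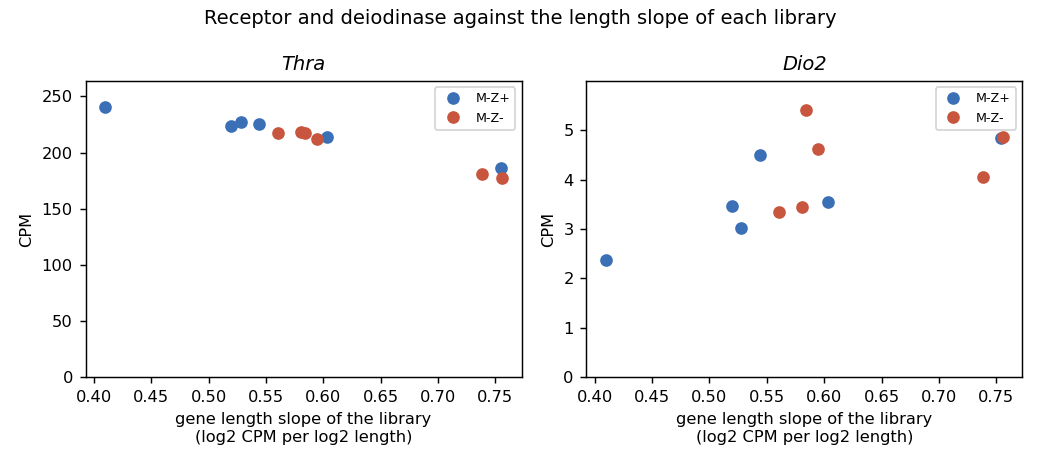
CPM of *Thra* (left) and *Dio2* (right, vertical axes from 0) against the length slope of each library (log2 CPM per log2 gene length), with 1 point per embryo, M-Z+ in blue and M-Z- in red. *Thra* falls from 241 CPM at the lowest slope to 177 CPM at the highest over both genotypes.

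*Thrb*, the receptor gene of the pituitary, liver, cochlea and retina (chr14:17660960-18038088), was the gene with the smallest difference. It had 33 to 77 counts in M-Z+ libraries and 38 to 59 in M-Z- libraries. The M-Z+ embryos had 2.16 CPM at the lowest, 3.71 at the median and 4.15 at the highest, and the M-Z- embryos 2.83, 3.602 and 4.16 CPM. The lowest value belonged to M-Z+ replicate 5, and the highest values of both groups nearly coincided. The log2 fold change was 0.0087 (SE 0.18, 95% interval -0.37 to 0.38, adjusted p = 0.990 by edgeR, exact permutation p = 0.959). Per transcript length, the ratio of *Thra* to *Thrb* was 94.1 ± 28.8 in M-Z+ and 84.2 ± 15.2 in M-Z- embryos (SD, n = 6 each). The exact permutation test of the mean log2 ratio gave p = 0.524.

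*Slco1c1* encodes a thyroxine transporter of brain endothelium and choroid plexus (chr6:141524368-141570177), and it was not called. It had 30 to 73 counts in M-Z+ and 23 to 44 in M-Z- libraries. The level was 2.19 CPM at the lowest, 2.67 at the median and 3.94 at the highest in M-Z+ embryos, and 1.75, 2.63 and 3.28 CPM in M-Z- embryos. The medians nearly coincided, with the highest value in an M-Z+ and the lowest in an M-Z- embryo. Its log2 fold change was -0.097 (SE 0.19, 95% interval -0.51 to 0.32, adjusted p = 0.898 by edgeR, exact permutation p = 0.619). Beside it, the 6 markers of brain endothelium summed to 394 to 444 CPM in M-Z+ and 385 to 469 CPM in M-Z- embryos, and the 5 markers of choroid plexus to 16.9 to 26.5 CPM and 15.8 to 27.8 CPM. None of the tested markers was called, and the summed ranges overlapped between the groups. In M-Z+ embryos the largest parts of the first sum were *Slc2a1* (mean 194 CPM), *Cdh5* (113) and *Pecam1* (73.8). Of those 6 markers 4 were higher and 2 lower in value (*Cldn5*, log2 fold change -0.23, and *Mfsd2a*, -0.11). The second sum was mostly *Otx2* (means 16.9 and 15.6 CPM), with *Kcne2* next (2.92 and 3.18), and *Kcnj13* was too low to test. The sums therefore do not measure the amount of either cell type.

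*Klf9*, a zinc finger factor gene that is directly induced by thyroid hormone and also by glucocorticoids (chr19:23141226-23166911), spread more widely among the M-Z+ (SD 1.34 CPM) than among the M-Z- embryos (SD 0.562 CPM). The SD of *Dio3* and *Hr* was also larger in M-Z+ embryos, that of *Thra* was not, and no difference in spread was tested. It had 37 to 80 counts in M-Z+ and 42 to 69 in M-Z- libraries. The M-Z+ values were 2.43 CPM at the lowest, 3.61 at the median and 5.94 at the highest, and the M-Z- values 3.22, 3.93 and 4.86 CPM, so all M-Z- embryos lay within the M-Z+ range. On the log2 scale the fold change was 0.047 (SE 0.21, 95% interval -0.41 to 0.51, adjusted p = 0.955 by edgeR, exact permutation p = 0.868).

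*Hr* encodes a corepressor that binds thyroid hormone receptors and is itself induced by hormone in brain (chr14:70552212-70573548). It had 56 to 99 counts in M-Z+ and 41 to 67 in M-Z- libraries. The M-Z+ values were 3.99 CPM at the lowest, 4.62 at the median and 7.54 at the highest, and the M-Z- values 3.41, 4.43 and 5.47 CPM. The lower mean of the M-Z- embryos rested largely on 1 M-Z+ embryo, replicate 3, which stood apart at 7.54 CPM while the other 5 were between 3.99 and 5.001 CPM. The log2 fold change was -0.18 (SE 0.17, 95% interval -0.55 to 0.19, adjusted p = 0.782 by edgeR, exact permutation p = 0.394), and it was -0.033 without that embryo. The same embryo had the highest *Klf9* (5.94 CPM) and the highest *Dio3* (8.91 CPM) of all 12.

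*Thrsp*, a lipogenic gene induced by thyroid hormone in liver and fat (chr7:97412938-97417730), was too low for the test across genes. It had 1 to 7 counts in each of the 6 M-Z+ embryos (28 in all), and 0 to 10 counts in M-Z- embryos (19 in all), with counts above 0 in 4 of 6. Per TMM-scaled library size, the M-Z- level was 0.786 of the M-Z+ level (95% exact binomial interval 0.415 to 1.46, counting error only). There was no count in 2 M-Z- embryos, while another had the highest of all 12, and the exact permutation test of CPM gave p = 0.623.

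In order of level per transcript length, averaged over the 12 embryos, *Thra* stood at 131 ± 7.19 TPM, above 87.4% of tested genes. *Klf9* (3.41 ± 0.930), *Slco1c1* (2.83 ± 0.550), *Dio2* (1.96 ± 0.502), *Hr* (1.96 ± 0.429) and *Thrb* (1.53 ± 0.282) followed, all in TPM ± SD and each above at most 13.0% of tested genes. In these shares, tested genes without a merged exon length had no TPM and were counted as not below. Of genes with over 200 counts in all, 95.9% had such a length. *Thrsp* (0.596 ± 0.493 TPM) and *Dio1* (0.0277 ± 0.0507 TPM) came last. This order rests on the merged exon lengths. The lengths implied by the deposited FPKM were 8547 bases against 2721 for *Slco1c1*, 14427 against 6622 for *Thrb* and 5813 in both for *Dio2*. The order was not computed with the implied lengths. *Thra* was above each of the others in 12 of 12 embryos. *Slco1c1* was above *Dio2* in 11 of 12, and *Thrb* above *Thrsp* in 10 of 12. *Dio2* and *Hr* were not ordered, with *Dio2* higher in 5 of 12 embryos (1 of 6 M-Z+ and 4 of 6 M-Z-, a difference that was not tested), and *Klf9* over *Slco1c1* and *Hr* over *Thrb* held in 9 of 12 each. *Dio3* averaged 5.91 TPM and its place differed between the genotypes, since it lay above *Klf9* in 6 of 6 M-Z+ embryos and below it in 6 of 6 M-Z- embryos.

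**Figure D4:**
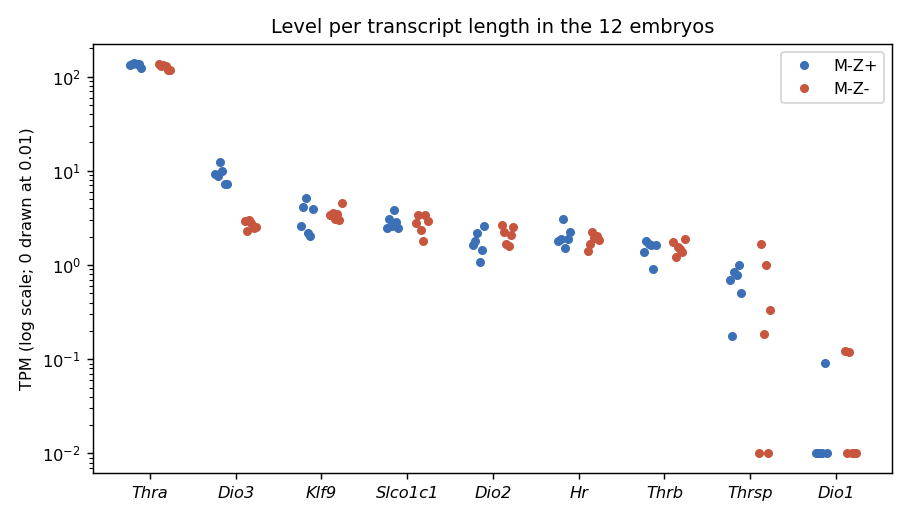
Level per transcript length in TPM (vertical log axis, with 0 drawn at 0.01) of the 8 genes and *Dio3*, ordered by the mean over the 12 embryos, with 1 point per embryo (M-Z+ blue, M-Z- red). *Thra* lies near 131 TPM in every embryo, 5 genes lie between 0.900 and 5.14 TPM, and the M-Z- points of *Dio3* fall among these.

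Among embryos of 1 genotype, the genes did not follow *Dio3* in a common way. With log2 CPM of *Dio3*, the Pearson correlations within the M-Z+ and the M-Z- embryos (n = 6 each, all values of an embryo from 1 library) were -0.191 and -0.400 for *Dio2*, 0.701 and 0.712 for *Thra*, and 0.474 and 0.507 for *Thrb*. They were 0.365 and -0.721 for *Slco1c1*, 0.293 and -0.250 for *Klf9*, and 0.416 and 0.225 for *Hr*. Without the 2 embryos farthest from the *Dio3* median of their group, *Hr* turned to -0.882 and -0.362 and *Klf9* to -0.0163 and -0.0108, so the values of both rest on those embryos. Those of *Slco1c1* were then 0.50 and -0.633, again of opposite sign, and those of *Thra* 0.565 and 0.995. The values of *Dio2* became -0.486 and -0.0807, and those of *Thrb* 0.753 and 0.282. *Thra* and *Dio3* both had negative correlations with the length slope, whose part in their relation was not tested.

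The genes with patterns most like each tested gene were sought among 12600 genes with a mean of at least 5 CPM. They had the 3 highest Pearson correlations of log2 CPM over the 12 embryos, after the genotype means were subtracted. As the highest of 12600 values from 12 libraries, such correlations can be high through selection alone. The part of the length slope in them was not tested. For *Thra* the genes were *C1qbp* (0.989), *Pa2g4* (0.985) and *Sh3bgrl3* (0.984). For *Dio2* they were *Rnf19a* (0.939), *Filip1l* (0.934) and *Tbc1d23* (0.915), and for *Thrb* *Fubp3* (0.924) and *Fn3k* (0.896). For *Klf9* they were *Eif2ak3* (0.946), *Adam12* (0.925) and *Dsc3* (0.923), and for *Hr* *BC048403* (0.947), *Chst11* (0.908) and *Atp7b* (0.859). The Spearman correlation of *Hr* with *BC048403* was lower, at 0.797, and M-Z+ replicate 3 was included in both values. For *Slco1c1* they were *Dnajc19-ps* (0.867), *Arrb2* (0.865) and *Hmgb1-ps7* (0.814), of which the symbols of the first and the last mark pseudogenes, whose reads can belong to their parent genes.

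Beyond the 8 genes, 65 further genes of the pathway were examined in 7 lists, and none of the 51 that could be tested was called, where 0.0811% of all tested genes were. Of the 51, 28 were higher and 23 lower in value in M-Z- embryos, with a median log2 fold change of 0.035. Among all tested genes, 51.75% were lower. At an unadjusted p below 0.05 there were 4 of 51, beside 6.70% of all tested genes. *Me1* and *Gpd2* were higher and *Gps2* and *Iyd* lower in value. No gene of the lists separated the genotypes without overlap.

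Of the 14 tested genes that hormone is known to raise in other settings, 10 were higher in value in M-Z- embryos. Their median was 0.14, and none was called. Over all tested genes, 51.75% were lower in value. The mean length slope was higher in M-Z- libraries (0.636 against 0.560), and its part in this list was not tested. *Me1*, the malic enzyme gene that is a standard hormone-induced liver gene, had 16.8 CPM at the lowest, 19.4 at the median and 21.2 at the highest in M-Z+ embryos and 19.8, 23.8 and 30.8 CPM in M-Z- embryos. All 6 M-Z- embryos were above the M-Z+ median, with a log2 fold change of 0.32 (SE 0.11, adjusted p = 0.712 by edgeR, exact permutation p = 0.0195 before adjustment). *Gpd2*, the mitochondrial glycerol phosphate dehydrogenase gene, had 29.4 CPM at the lowest, 32.8 at the median and 38.7 at the highest in M-Z+ embryos, and 36.9, 38.4 and 44.1 CPM in the M-Z- group. Its log2 fold change was 0.22 (SE 0.08, adjusted p = 0.744 by edgeR, exact permutation p = 0.0217 before adjustment). The largest other values in the list were those of *Acaca* (fatty acid synthesis, 0.36), *Myh6* (alpha myosin heavy chain, 0.33) and *Hcn2* (a pacemaker channel, -0.34). *Pck1*, *Ucp1* and *Pcp2* were too low to test.

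Of 5 genes that hormone lowers, only *Myh7* (beta myosin heavy chain, log2 fold change 0.23, SE 0.20) and *Aldh1a1* (retinaldehyde dehydrogenase, -0.11, SE 0.16) were tested. The pituitary and hypothalamic genes *Tshb*, *Cga* and *Trh*, through which hormone feeds back on the thyroid gland, were too low in whole embryos. The feedback axis therefore could not be read from these libraries.

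Among 8 other transporters 5 were tested and the median was 0.019. *Slc7a8* (0.15, SE 0.10) and *Slco4a1* (-0.25, SE 0.23) did not pass the test. Among the 3 plasma binding proteins, *Ttr*, for transthyretin, had -0.12 (SE 0.18), *Alb*, for albumin, -0.30 (SE 0.24), and *Serpina7*, for thyroxine-binding globulin, 0.60 (SE 0.44) from only 58 counts in M-Z+ and 77 in M-Z- embryos. These proteins are made largely in fetal liver, and beside them all 7 hepatocyte markers were lower in value in M-Z- embryos (median log2 fold change -0.25, none with an unadjusted p below 0.05). The part of hepatocyte RNA in *Alb* and *Ttr* was not tested.

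All 14 receptor partners and coregulators were tested, 9 higher and 5 lower in value, with a median of 0.097. *Gps2*, a subunit of the NCOR corepressor complex, was 43.5 ± 6.498 CPM in M-Z+ embryos and 36.7 ± 1.62 CPM in the M-Z- group (SD, n = 6 each). Its log2 fold change was -0.24 (SE 0.10, adjusted p = 0.744 by edgeR, exact permutation p = 0.0325 before adjustment). The largest other values were those of *Tbl1xr1* (0.38, SE 0.35), *Ncoa2* (0.30, SE 0.15) and *Ncor1* (0.27, SE 0.16). *Tbl1xr1*, another part of that complex, ranged from 10.8 to 99.0 CPM within the M-Z+ embryos alone.

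The 6 genes of selenoprotein synthesis, which deiodinases require for their selenocysteine, had a median of -0.046 with 2 higher and 4 lower in value. Their largest values were those of *Sepsecs* (-0.24, SE 0.23), *Eefsec* (-0.19, SE 0.11) and *Sephs2* (-0.089, SE 0.13). Of 12 genes of hormone synthesis in the thyroid gland, 7 were tested, 2 higher and 5 lower in value, with a median of -0.055. *Iyd*, the gene of the enzyme that recycles iodide from iodotyrosines, had 114 counts in M-Z+ and 58 in M-Z- embryos, or means of 1.27 ± 0.407 and 0.756 ± 0.395 CPM (SD, n = 6 each). Its log2 fold change was -0.75 (SE 0.35, adjusted p = 0.745 by edgeR, exact permutation p = 0.0476 before adjustment). *Pax8* (-0.38, SE 0.18) and *Foxe1* (-0.28, SE 0.34), factors of the thyroid primordium, did not pass the test. *Slc5a5*, *Slc26a4* and *Duox2* were too low to test, and *Duoxa2* was at 0 in all 12 libraries.

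**Figure D5:**
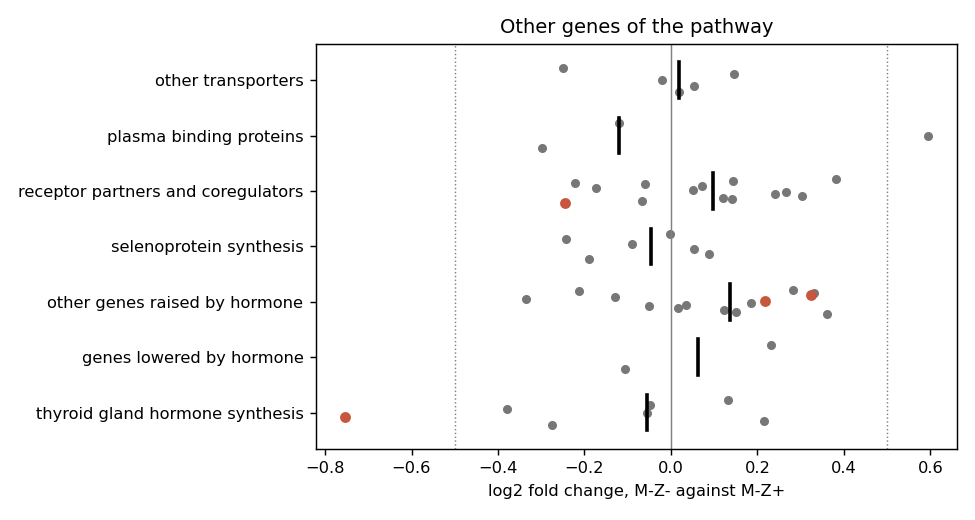
Log2 fold change of M-Z- against M-Z+ embryos (horizontal axis, dotted lines at the limits of -0.5 and 0.5) for the 51 tested genes of the 7 further lists, with 1 point per gene and a black bar at the median of each list. Red points mark the 4 genes with an unadjusted p below 0.05, none of which was called after adjustment.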

How the data were processed

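RNA-seq had been performed on 6 M-Z+ and 6 M-Z- embryos, grouped by the genotype in the labels. The table that the authors deposited holds raw counts of 34745 genes and FPKM values. The deposited FPKM values come back from these counts to within 0.1%. The submitters' processing notes name mm10, HISAT2 2.0.4 and Trim Galore 0.4.1. How reads were counted, with what annotation and whether by strand, is not given in the sources used here. Only the gene lengths implied by FPKM were examined, and these exceeded the whole gene span in 5.88% of 15315 genes, for a reason that was not tested. TPM and the length slope were therefore computed with merged exon lengths from GENCODE vM1. These lengths were matched by gene ID and come from another build (mm9), whose coordinates were not used. TPM levels, their order, the *Thra* to *Thrb* ratio and the deiodinase shares rest on this choice of lengths. Gene positions are those of the table, which overlap RefSeq GRCm38.p6 for 99.8% of 25595 genes matched by symbol. Dates stood in place of 27 symbols.

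Counts were tested in R 4.3.3 with edgeR 4.0.16 (TMM, filterByExpr, glmQLFit and glmQLFTest, Benjamini-Hochberg adjustment over 16026 genes) without covariates, and the script was tested on simulated data. The thresholds for a call were 0.05 for the adjusted p and 0.5 for the size of the log2 fold change. Standard errors were derived from the log2 fold change and the square root of its quasi-likelihood F. Exact two-sided permutation tests of mean CPM used all 924 ways to divide the 12 libraries into groups of 6 and were not adjusted. For ratios of TPM the same test was run on the mean log2 ratio. Alternatives used DESeq2 1.42.0, sva 3.50.0 and otherwise edgeR. The number of surrogate variables estimated by sva was 1, and 2 were used. Figures were drawn with Python 3.11.15 and matplotlib 3.10.9. Within each genotype, no pair of libraries agreed within sampling noise (the lowest chi-square per degree of freedom over 30 pairs was 7.06). Count-based intervals hold counting error alone, because no molecular identifiers are named in the labels.

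The members, the pathway lists and the markers were chosen with earlier results of these data known, the lower *Dio3* included. The text names the 8 genes and *Dio3*, every listed gene with an unadjusted p below 0.05, up to 3 tested genes per list with the largest log2 fold change, and the 3 genes most like each tested member. *Nr1d1* and *Gm26512* are named because they overlap members, and *Zfp57* as the targeted gene. Untested genes of the lists are named only as such. A few genes that this rule names are not reported here.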

Additional observations from a re-analysis of the deposited data

Results flagged for a closer look

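*Hr* in M-Z+ replicate 3 was 7.54 CPM, while the other 5 M-Z+ embryos had 3.99 to 5.001 CPM. Its gap to the next embryo was 0.715 of the whole range, above Dixon's 95% critical value for 6 samples. It was the only value flagged in 16 groups examined, where about 0.8 would arise at 1 in 20. *Dio1*, at 0 in every M-Z+ embryo except replicate 5 (0.0655 CPM), was not flagged.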

How the results depend on the processing

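None of the 8 genes was called under any of the alternatives, and *Dio3* was called in all 18, with log2 fold changes from -1.89 to -1.65. The number of genes called overall moved from 13 to 40 with DESeq2, 21 with a replicate block, 23 with the length slope, 31 with 2 surrogate variables and 247 at unadjusted p. At unadjusted p, 1 other pathway gene was called (*Iyd*). Direction held in all alternatives for *Dio2* (0.038 to 0.35), *Thra* (-0.16 to -0.010) and *Hr* (-0.27 to -0.033). It turned for *Klf9* with the slope (-0.045) and with 2 surrogate variables (-0.19), for *Thrb* with 2 surrogate variables (-0.094), and for *Slco1c1* with 2 surrogate variables (0.017), and the cause was not tested. With 1 embryo left out in turn, *Thrb* ranged from -0.10 to 0.061, *Klf9* from -0.058 to 0.21 and *Slco1c1* from -0.18 to 0.030. The lowest unadjusted p of any tested member under any alternative was 0.0539 by edgeR (*Thra*, without M-Z+ replicate 6). The replicate numbers were not shown to pair embryos: same-numbered embryos correlated at 0.035 to 0.63, and 3 of 6 correlated best with their own number. The replicate block changed no call among the 8 genes. At this depth *Dio1* and *Thrsp* had too few counts for the test. With the slope, *Dio2* was 0.12 and *Slco1c1* -0.014.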
